A study of Mus musculus with 6 samples.

Results

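The 10 genes described here encode Toll-like receptors of mouse B cells and the proteins that assemble with them: Tlr1, Tlr2, Tlr3, Tlr4, Tlr6, Tlr7, Tlr9, Cd180, Ly86 and Unc93b1. They were taken by gene symbol from a table of 55487 gene IDs, each symbol matched 1 ID, and all 10 were among the 13794 genes that passed the count filter. RNA was sequenced from marginal zone B cells of 14-week-old mice, in 3 libraries from CD55KO mice and 3 from WT C57BL/6 mice. Decay-accelerating factor, or CD55, is anchored in the cell membrane and protects cells from complement by breaking up the convertases on their surface. The labels give neither the strain background of the CD55KO mice nor the construction of their allele. Nor do they tell whether each library stands for its own mouse, so the tests measure the spread between libraries, which may be technical. The question asked of these genes was whether their RNA levels differed between the genotypes.

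Toll-like receptors recognise microbial molecules through an ectodomain of leucine-rich repeats and signal through a cytoplasmic TIR domain. TLR1, TLR2, TLR4 and TLR6 sit at the cell surface, where TLR2 pairs with TLR1 or TLR6 to bind bacterial lipopeptides and TLR4 binds lipopolysaccharide with its partner MD-2, the product of Ly96. TLR3, TLR7 and TLR9 sense nucleic acids in endosomes and reach them with the transmembrane protein UNC93B1. CD180, also called RP105, is a TLR4-like surface protein of B cells that lacks a TIR domain and is held at the surface by MD-1, the product of Ly86. Marginal zone B cells line the border of the splenic white pulp and are known for rapid antibody responses to blood-borne microbes through these receptors.

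The libraries held 20056064 to 30784031 estimated counts, the smallest being WT replicate 1. Cd55 itself averaged 7.53 ± 1.36 CPM, the estimated counts of a gene scaled to a common library size, in CD55KO libraries and 118 ± 7.69 CPM in WT libraries (SD, n = 3 each), a log2 fold change of -3.96 ± 0.11 (SE; edgeR's quasi-likelihood test with Benjamini-Hochberg adjustment, adjusted p = 3.9e-12), in the direction that the genotype labels give. Summed CPM of 10 marginal zone B cell markers lay between 4726 and 5112 in CD55KO libraries and between 4685 and 5056 in WT libraries. Among the 10 only Notch2 did not overlap, with 352 to 375 CPM in CD55KO libraries and 269 to 314 CPM in WT libraries. It was higher but did not pass (edgeR's quasi-likelihood test, adjusted p = 0.283). Lists for other cell types were set beside the receptors, and some did not overlap between the genotypes, in both directions. Of single genes, 14.1% of those tested did not overlap, and no such rate was computed for summed lists. Macrophage markers summed to 32.4 to 38.1 CPM in CD55KO libraries and 22.3 to 27.1 CPM in WT libraries, plasmacytoid dendritic cell markers to 32.9 to 37.0 CPM in CD55KO libraries and 25.6 to 27.7 CPM in WT libraries, and B-1 cell markers to 75.3 to 97.6 CPM in CD55KO libraries and 59.4 to 72.3 CPM in WT libraries. Monocyte and neutrophil markers were lower, at 2.16 to 2.47 CPM in CD55KO libraries and 3.13 to 3.74 CPM in WT libraries. Of these 7 markers 2 were tested and 0 passed, and 5 were under 10 counts in all libraries. Dendritic cell markers overlapped, at 4.22 to 5.50 CPM in CD55KO libraries and 4.51 to 6.85 CPM in WT libraries. T cell markers were higher, at 1.42 to 1.79 CPM in CD55KO libraries and 0.826 to 1.03 CPM in WT libraries. These sums too lay near the floor: 2 of the 7 markers were tested and 0 passed, and 4 were under 10 counts in all libraries. Follicular B cell markers overlapped, at 2091 to 2337 CPM in CD55KO libraries and 1904 to 2099 CPM in WT libraries. Of that list only Ighd did not overlap, and it was higher but did not pass (edgeR's quasi-likelihood test, adjusted p = 0.187). Plasma cell markers, which were lower, are given below with Hsp90b1. Germinal centre markers overlapped, at 18.3 to 29.2 CPM in CD55KO libraries and 25.8 to 87.8 CPM in WT libraries. All 8 had log2 fold changes below 0, with a median of -1.45. Of these, 1, Gcsam, fell (edgeR's quasi-likelihood test, adjusted p = 0.0343), beside 0.261% of all genes lower. An unadjusted p under 0.05 was found for 2 of the 8 (edgeR's quasi-likelihood test), beside 8.6% of all genes. Of the 12 macrophage markers 6 were tested and 0 passed, with log2 fold changes above 0 for 4 and below 0 for 2. Cd68 had 220 to 445 counts, Spic 124 to 365 and Adgre1 34 to 117, and Fcgr1 at most 1. Most of the plasmacytoid dendritic cell sum came from Pacsin1. Most of the B-1 cell sum came from Cd300lf, with 46.9 to 54.7 CPM in CD55KO libraries and 31.7 to 43.4 CPM in WT libraries. S100a6 of that list was also higher without overlap, while Cd5, Bhlhe41, Ahnak and Zbtb32 overlapped. Ly6g and Clec9a were at 0 counts in all 6 libraries, while Lyz2, of the same list as Ly6g, had 8 to 47 counts and Flt3, of the same list as Clec9a, 34 to 70. The part of these cells in the receptor levels was not tested. Erythroid markers ranged widely within both genotypes, from 35.8 to 1989 CPM in CD55KO libraries and from 105.2 to 4351 CPM in WT libraries. In such bulk RNA, fewer cells of a type and less RNA per cell cannot be told apart.

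Levels of different genes were compared as CPM per kilobase of the gene's exons. Unc93b1 stood highest, at 372 ± 24.0 CPM per kilobase in CD55KO libraries and 409 ± 39.9 in WT libraries (SD, n = 3 each), which placed its mean at percentile 98.7 of the genes tested. Ly86 followed at percentile 97.4 and Cd180 at percentile 91.3, with mean levels over the 6 libraries of 167 and 45.6 CPM per kilobase. Among the receptors with a TIR domain Tlr1 was highest, with a mean of 25.5 CPM per kilobase, and Tlr7 followed at 9.82 and Tlr3 at 6.55. For these 6 genes each gene's lowest library lay above the highest library of the next gene.

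The 4 remaining receptors had lower levels that lay close together. Tlr2 averaged 3.77 CPM per kilobase over the 6 libraries, Tlr4 averaged 3.58, Tlr6 averaged 2.72 and Tlr9 averaged 2.16. Tlr3 did not overlap Tlr2, but Tlr2 and Tlr4 overlapped, with Tlr2 the higher in only 4 of 6 libraries. Tlr4 exceeded Tlr6, and Tlr6 exceeded Tlr9, in 5 of 6 libraries each, so these neighbours are not separated beyond their spread. With the mean transcript length in place of the exon length, 7 of the 10 genes kept their place and Tlr2 moved below Tlr4 and Tlr6. The level itself depended on the length for 8 of the 10: with the mean transcript length it was 165 CPM per kilobase for Cd180, 317 for Ly86, 1004 for Unc93b1, 17.5 for Tlr3 and 11.2 for Tlr4.

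**Figure D1:**
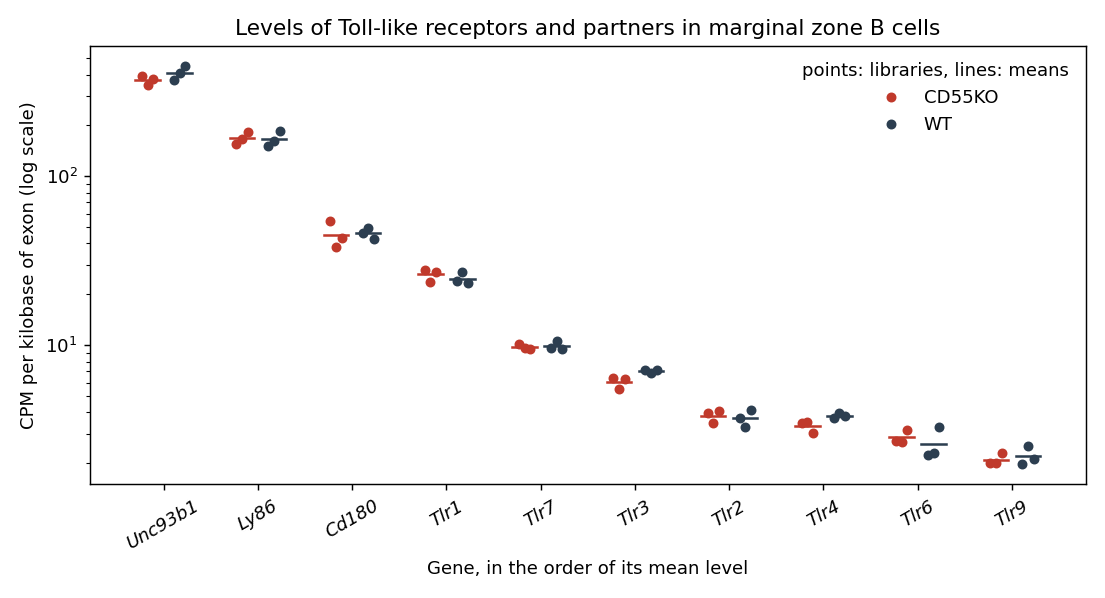
Levels of the 10 genes as CPM per kilobase of exon on a log scale, with 1 point for each CD55KO or WT library and a line at each genotype's mean. Levels fall from Unc93b1, with a mean of 391 over the 6 libraries, to Tlr9, with a mean of 2.16.

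Tlr1, which recognises triacylated lipopeptides together with TLR2, lies on chromosome 5 at positions 64924679 to 64933563 of GRCm38, on the minus strand. Tlr6, which pairs with TLR2 for diacylated lipopeptides, lies beside it on the same strand at positions 64952031 to 64960097. Their coding sequences, of 2385 and 2418 bases, matched at 76.3% of aligned positions. The match was uneven: within windows of 300 bases it was lowest, at 53.7%, in the stretch coding for the ectodomain, and reached 99.3% and 98.7% in neighbouring windows further 3′. The longest identical run spanned 229 bases, and 14.7% of the 75-base windows of the Tlr1 coding sequence also occurred in that of Tlr6. No source used here states the read length.

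To show why reads from this pair can be assigned to either gene, 120 bases within the identical run are printed from the GRCm38 genome in coding direction, from chr5:64925646-64925765 for Tlr1 and chr5:64953937-64954056 for Tlr6, both on the minus strand. After it follows the least alike 120-base window aligned without gaps within the first 1500 bases of the Tlr1 coding sequence. It comes from chr5:64926209-64926328 for Tlr1 and chr5:64954500-64954619 for Tlr6, with the 57 differing bases in capitals. Windows further 3′ were not searched.
Tlr1, identical stretch: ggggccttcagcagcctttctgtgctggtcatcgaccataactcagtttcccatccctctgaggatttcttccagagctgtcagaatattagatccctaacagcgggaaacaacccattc
Tlr6, identical stretch: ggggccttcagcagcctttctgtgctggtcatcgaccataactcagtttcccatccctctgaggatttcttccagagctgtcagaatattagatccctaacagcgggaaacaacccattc
Tlr1, least alike window: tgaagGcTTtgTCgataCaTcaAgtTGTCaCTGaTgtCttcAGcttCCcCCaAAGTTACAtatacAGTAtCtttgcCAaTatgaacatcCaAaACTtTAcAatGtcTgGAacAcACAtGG
Tlr6, least alike window: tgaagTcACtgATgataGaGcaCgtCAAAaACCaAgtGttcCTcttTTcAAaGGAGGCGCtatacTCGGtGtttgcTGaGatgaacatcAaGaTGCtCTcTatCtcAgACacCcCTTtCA

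Tlr1 and Tlr6 both had fractional estimated counts in each library, but their sum was whole, within 0.011, in 6 of 6 libraries. Tlr6 took 9.87%, 11.1% and 11.4% of the summed counts in CD55KO libraries 1 to 3 and 9.34%, 8.64% and 13.5% in WT libraries 1 to 3. The share overlapped between the genotypes and was both highest and lowest in WT libraries. Reads that match both genes can be shared out in this way, but whether they were was not tested on the reads. The separate levels of Tlr1 and Tlr6 are estimates, while their sum does not depend on any division of reads between them.

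**Figure D2:**
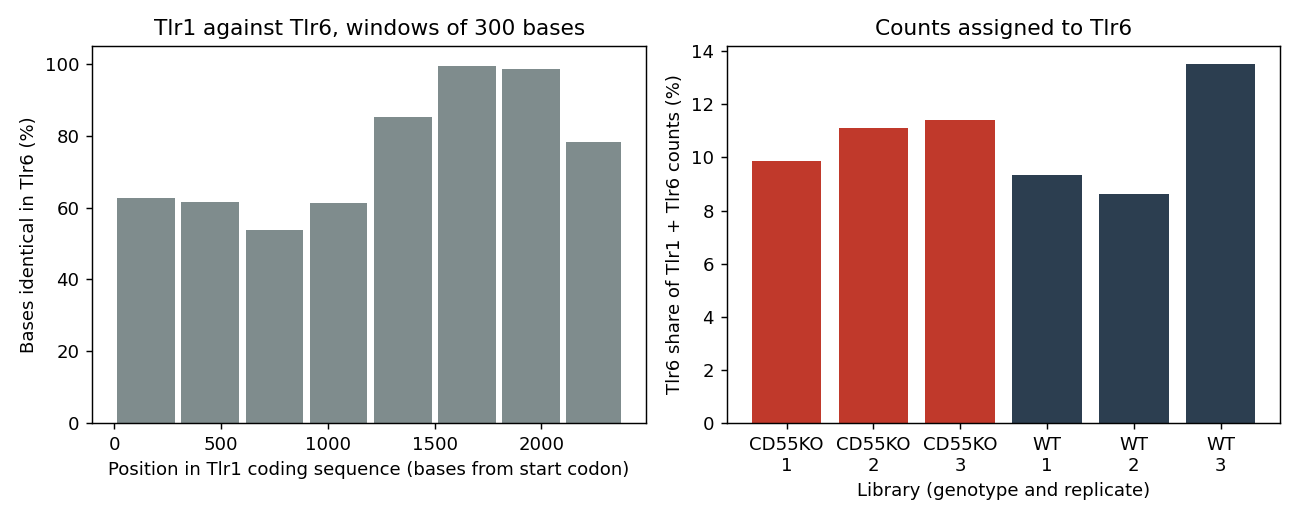
Left, percent of bases in windows of 300 bases of the Tlr1 coding sequence that are identical in Tlr6. Right, percent of the summed Tlr1 and Tlr6 estimated counts assigned to Tlr6 in each CD55KO and WT library, from 8.64% to 13.5%.

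Tlr1 had 92.8, 79.6 and 91.3 CPM in CD55KO libraries 1 to 3 and 80.7, 90.2 and 78.2 CPM in WT libraries 1 to 3. The libraries of the genotypes interleaved. The log2 fold change of CD55KO over WT was 0.08 ± 0.08 (SE; edgeR's quasi-likelihood test with Benjamini-Hochberg adjustment, adjusted p = 0.847), with a 95% interval of 0.939 to 1.19 for the fold.

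Tlr6 had 10.2, 9.95 and 11.8 CPM in CD55KO libraries and 8.31, 8.53 and 12.2 CPM in WT libraries. WT replicate 3 was the highest of all 6 libraries while the other WT libraries were the lowest. The log2 fold change was 0.13 ± 0.16 (edgeR's quasi-likelihood test, adjusted p = 0.897), and the interval of the fold, 0.861 to 1.39, reached the highest value among the 10 genes. Summed, Tlr1 and Tlr6 averaged 98.6 ± 7.78 CPM in CD55KO libraries and 92.7 ± 5.23 CPM in WT libraries (SD, n = 3 each), a log2 fold change of 0.09 ± 0.08 (edgeR's quasi-likelihood test, adjusted p = 0.825).

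Tlr2, the shared partner of TLR1 and TLR6, lies on chromosome 3 at positions 83836272 to 83841767 of GRCm38, minus strand. It had 11.95, 10.4 and 12.2 CPM in CD55KO libraries and 11.1, 9.90 and 12.5 CPM in WT libraries. The groups overlapped throughout, with a log2 fold change of 0.05 ± 0.14 (edgeR's quasi-likelihood test, adjusted p = 0.972). Per kilobase, the RNA of Tlr1 exceeded that of Tlr2 in all 6 libraries.

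Tlr4, the lipopolysaccharide receptor, lies on chromosome 4 at positions 66827584 to 66930284 of GRCm38, plus strand. Its estimated counts were 525, 480 and 477 in CD55KO libraries and 422, 694 and 597 in WT libraries, or 19.2, 19.4 and 16.7 CPM in CD55KO libraries and 20.5, 22.2 and 21.2 CPM in WT libraries. All CD55KO values lay below all WT values, with CD55KO replicate 3 the lowest. The log2 fold change was -0.21 ± 0.10, a fold of 0.866 with a 95% interval of 0.743 to 1.01, and did not pass the test (edgeR's quasi-likelihood test, unadjusted p = 0.0647, adjusted p = 0.617).

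Of the proteins that work beside TLR4 and TLR2 at the membrane, Ly96 encodes the MD-2 subunit that binds lipopolysaccharide. Ly96 had 28.34, 29.6 and 30.3 CPM in CD55KO libraries and 28.32, 26.3 and 26.8 CPM in WT libraries. All CD55KO values lay above all WT values, though CD55KO replicate 1 and WT replicate 1 nearly met. The log2 fold change was 0.12 (edgeR's quasi-likelihood test, adjusted p = 0.787). Cd36, a scavenger receptor that assists TLR2, averaged 257 ± 13.5 CPM in CD55KO libraries and 244 ± 17.8 CPM in WT libraries (SD, n = 3 each; edgeR's quasi-likelihood test, adjusted p = 0.876). Cd14, which hands lipopolysaccharide to TLR4, was not tested: it had 1, 0 and 6 counts in CD55KO libraries and 4, 0 and 0 in WT libraries.

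Cd180 lies on chromosome 13 at positions 102693558 to 102739629 of GRCm38, plus strand. It had 244, 172 and 195 CPM in CD55KO libraries and 208, 223 and 193 CPM in WT libraries. CD55KO replicates 1 and 2 were the highest and the lowest of the 6 libraries, and the coefficient of variation was 18.2% in CD55KO libraries and 7.33% in WT libraries, against 1.34% expected from counting. The log2 fold change was -0.03 ± 0.11 (edgeR's quasi-likelihood test, adjusted p = 0.978). The exons of Cd180 share 182 bases with those of Mast4 on the opposite strand, and the library kit does not mark strand. With the counts of both genes summed, the log2 fold change was -0.01 ± 0.10 (edgeR's quasi-likelihood test, adjusted p = 0.997).

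Ly86, on the same chromosome at positions 37345208 to 37419036, plus strand, had 564, 600.0 and 665 CPM in CD55KO libraries and 547, 589 and 670.1 CPM in WT libraries. The genotypes interleaved, and the log2 fold change of 0.02 ± 0.10 (edgeR's quasi-likelihood test, adjusted p = 0.990) was the smallest in size among the 10 genes. The CD180 and MD-1 proteins form a complex, and per kilobase of exon the ratio of Ly86 to Cd180 RNA was 2.87, 4.34 and 4.23 in CD55KO libraries and 3.26, 3.28 and 4.32 in WT libraries. The log2 ratio differed by 0.06 between the genotypes (exact two-sided permutation test, p = 0.9, where 0.1 is the smallest that 3 against 3 libraries allow).

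Tlr7, the receptor for single-stranded RNA, lies on chromosome X at positions 167304929 to 167330558 of GRCm38, minus strand. It had 41.3, 39.1 and 38.7 CPM in CD55KO libraries and 39.4, 43.1 and 38.9 CPM in WT libraries. It varied little in either genotype, and the fold of 0.980 had a 95% interval of 0.865 to 1.11 (log2 fold change -0.03 ± 0.09; edgeR's quasi-likelihood test, adjusted p = 0.973).

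Tlr9, the receptor for unmethylated CpG DNA, lies on chromosome 9 at positions 106222598 to 106226883, plus strand. It had the fewest estimated counts of the 10 genes, 190, 172 and 230 in CD55KO libraries and 141, 275 and 209 in WT libraries. Scaled, these were 6.97, 6.96 and 8.06 CPM in CD55KO libraries and 6.85, 8.78 and 7.42 CPM in WT libraries, and the groups overlapped. Counting alone gives a coefficient of variation of 7.02%, beside 8.61% in CD55KO libraries and 12.9% in WT libraries. The log2 fold change was -0.07 ± 0.16, with an interval of 0.752 to 1.20 for the fold (edgeR's quasi-likelihood test, adjusted p = 0.952).

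Tlr3, the receptor for double-stranded RNA, lies on chromosome 8 at positions 45395665 to 45411080, minus strand. It had 33.3, 28.5 and 32.7 CPM in CD55KO libraries and 37.2, 35.4 and 37.4 CPM in WT libraries. All CD55KO values lay below all WT values, with CD55KO replicate 2 the lowest. Its log2 fold change of -0.22 ± 0.09, a fold of 0.860 with a 95% interval of 0.752 to 0.983, had the smallest p of the 10 genes, and it did not pass the test over all genes (edgeR's quasi-likelihood test, unadjusted p = 0.0291, adjusted p = 0.506). Tlr3 shares 381 exon bases with Gm45542 on the opposite strand, which had at most 6.67 estimated counts in a library. The sum of both genes gave a log2 fold change of -0.21 ± 0.09 (edgeR's quasi-likelihood test, adjusted p = 0.518).

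**Figure D3:**
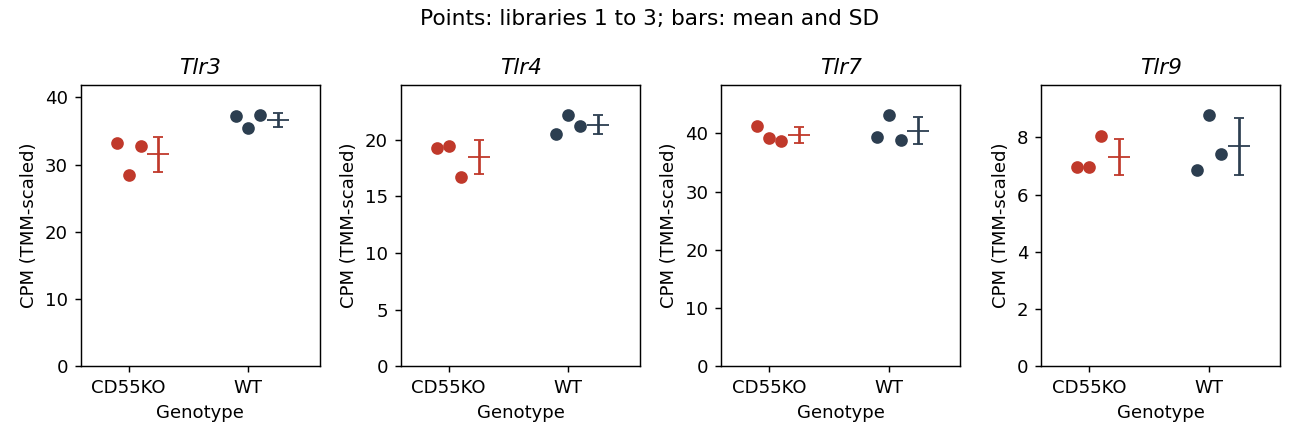
Level of Tlr3, Tlr4, Tlr7 and Tlr9 in CPM for each CD55KO and WT library, with the mean and SD of each genotype (n = 3). The genotypes do not overlap for Tlr3 and Tlr4 and overlap for Tlr7 and Tlr9, and none of the 4 passed the test.

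Unc93b1, which carries the nucleic acid receptors to endosomes, lies on chromosome 19 at positions 3935186 to 3949340 of GRCm38, plus strand. It had 1190.2, 1048 and 1146 CPM in CD55KO libraries and 1123, 1232 and 1364 CPM in WT libraries. WT replicate 3 was the highest and CD55KO replicate 2 the lowest, while CD55KO replicates 1 and 3 lay above WT replicate 1. The fold of 0.910 had a 95% interval of 0.793 to 1.04 (log2 fold change -0.14 ± 0.09; edgeR's quasi-likelihood test, adjusted p = 0.752).

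Set against its cargo, Unc93b1 RNA per kilobase was 21.2, 20.3 and 20.9 times the sum of Tlr3, Tlr7 and Tlr9 in CD55KO libraries and 19.7, 20.4 and 23.9 times in WT libraries. The log2 ratio differed by -0.03 (exact two-sided permutation test, p = 0.9, where 0.1 is the smallest that 3 against 3 libraries allow). Summed per kilobase, Tlr3, Tlr7 and Tlr9 made up 32.8%, 33.8% and 32.5% of the RNA of the 7 Toll-like receptors in CD55KO libraries and 35.7%, 35.3% and 35.3% in WT libraries. With the mean transcript length the shares were 37.99%, 38.4% and 37.7% in CD55KO libraries and 41.1%, 39.9% and 40.4% in WT libraries. With either length the genotypes did not overlap. Of single genes 14.1% did not overlap, among them Tlr3, but no such rate was computed for shares of several genes. The shares are given as a description with no test, and none of the 7 receptors passed the test alone. Tlr1 was the largest single part, with 47.1% to 49.2% in CD55KO libraries and 43.7% to 47.8% in WT libraries.

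Across the 10 genes, none differed between CD55KO and WT libraries at an adjusted p under 0.05 by edgeR's quasi-likelihood test, and none did so by DESeq2 or by limma-voom. Over all genes that edgeR test called 55 of 13794, or 0.399%, with 19 (0.138%) higher and 36 (0.261%) lower in CD55KO libraries; DESeq2 called 0.993% and limma-voom 0.362%. At an unadjusted p under 0.05 there was 1 of the 10, Tlr3, beside 8.6% of all genes. CD55KO and WT values were fully separated for 2 of the 10, Tlr3 and Tlr4, beside 14.1% of all genes; both were lower in CD55KO libraries, beside 6.84% of all genes lower and 7.24% higher. The median log2 fold change of the 10 was -0.03, with 6 below and 4 above 0, and that of all genes was 0.0015.

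The interval of each gene was computed separately from the spread between libraries, which may be technical, and was not adjusted for the number of genes. The intervals therefore describe the precision of each estimate and set no limit on a genotype effect. They ran from a fold of 0.743, the lower limit for Tlr4, to 1.39, the upper limit for Tlr6. With all 6 libraries the 10 estimates lay inside the range that holds the middle 80% of genes tested, a log2 fold change of -0.28 to 0.30. Tlr6 depended on WT replicate 3, without which its log2 fold change was 0.34.

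**Figure D4:**
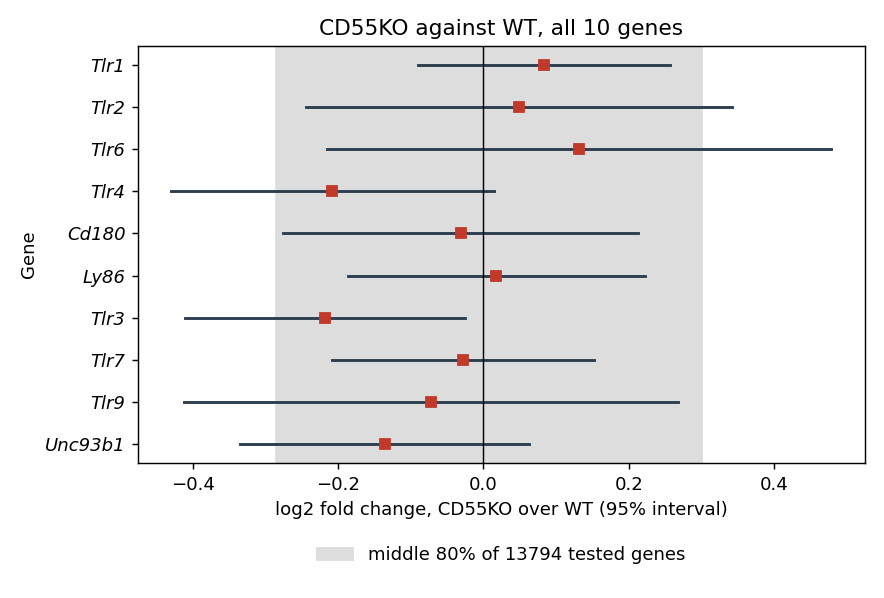
Log2 fold change of CD55KO over WT for each of the 10 genes, with its 95% interval; the grey band marks the middle 80% of the 13794 genes tested, from -0.28 to 0.30. With all 6 libraries, the 10 estimates lie within the band, and the interval of Tlr3 alone lies wholly below 0.

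As a description of Tlr1, the receptor with a TIR domain that had the highest level per kilobase, the genes whose log2 CPM followed it most closely over the 6 libraries were Irak1, with a Pearson correlation of 0.994, and Gm44567 and 4833420G17Rik, with 0.990 each. The 6 points share the genotypes and the scaling of the libraries, and these 3 are the highest among all genes tested.

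Lists of 87 other genes of the pathway were examined beside the receptors, of which 86 were found in the table and 76 were tested. Of these, 0 rose and 1, Hsp90b1, fell in CD55KO libraries (edgeR's quasi-likelihood test with Benjamini-Hochberg adjustment), beside 0.399% of all genes. A further look at an unadjusted p under 0.05 gave 8 of 76, beside 8.6% of all genes. The log2 fold change was above 0 for 37 and below 0 for 39, with a median of -0.0035. Of those named in the text, Ly96, Ctsl, Tirap, Ikbke and Tollip did not overlap between the genotypes and were higher in CD55KO libraries. Hsp90b1, Rnaset2b and Prdm1 did not overlap and were lower. Of the tested genes not named by the rule, Tbk1, which was higher, and Tnip1, which was lower, did not overlap either. The remaining tested genes of the lists overlapped. Of all genes tested, 14.1% did not overlap in either direction. Most of the named genes were picked for the smallest p in their list, so their separation was largely fixed by that choice.

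The chaperone and trafficking list held the gene that changed. Hsp90b1 encodes gp96, the endoplasmic reticulum chaperone on which folding of most Toll-like receptors depends. It had 356, 331 and 350 CPM in CD55KO libraries and 512, 489 and 532 CPM in WT libraries, with every CD55KO library below every WT library. Its log2 fold change was -0.57 ± 0.08, a fold of 0.676 with a 95% interval of 0.600 to 0.761 (edgeR's quasi-likelihood test with Benjamini-Hochberg adjustment, adjusted p = 0.0023). The 9 other tested genes of the list did not pass, among them Cnpy3, the co-chaperone of gp96, with 187 ± 18.9 CPM in CD55KO libraries and 201 ± 8.42 CPM in WT libraries (SD, n = 3 each). Plasma cell markers, from cells that also carry much of this chaperone, summed to 92.6 to 110.1 CPM in CD55KO libraries and 146 to 180.5 CPM in WT libraries, and their part in the value of Hsp90b1 was not tested. Most of that sum was Xbp1, whose protein switches on secretory pathway genes under endoplasmic reticulum stress, with 71.6, 79.99 and 83.8 CPM in CD55KO libraries and 129, 124 and 102 CPM in WT libraries (log2 fold change -0.59; edgeR's quasi-likelihood test, adjusted p = 0.0047). All 5 tested markers of the list had log2 fold changes below 0. An unadjusted p under 0.05 was found for 3 of them (edgeR's quasi-likelihood test), beside 8.6% of all genes. Derl3, another marker of the list, overlapped, with 12.1 to 14.2 CPM in CD55KO libraries and 11.7 to 21.9 CPM in WT libraries. Prdm1 did not, with 2.38 to 3.44 CPM in CD55KO libraries and 4.16 to 4.98 CPM in WT libraries.

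None of the 11 tested genes that act on receptors or ligands in the endosome passed. The smallest p belonged to Rnaset2b, an RNase whose human counterpart prepares ligands for the RNA-sensing receptors, with 48.1 ± 2.99 CPM in CD55KO libraries and 60.6 ± 7.48 CPM in WT libraries (SD, n = 3 each; log2 fold change -0.33 ± 0.09; edgeR's quasi-likelihood test, adjusted p = 0.218). The fractional counts of Rnaset2b and its near-identical copy Rnaset2a summed to whole numbers, within 0.011, in 4 of 6 libraries, and the own level of Rnaset2b is uncertain. Rnaset2a averaged 39.3 ± 4.39 CPM in CD55KO libraries and 45.9 ± 6.14 CPM in WT libraries, and the genotypes overlapped. Its log2 fold change was also below 0, at -0.22 ± 0.11 (edgeR's quasi-likelihood test, adjusted p = 0.602). The sum of both copies was not tested. Ctsl, a cathepsin that cleaves receptor ectodomains, averaged 5.45 ± 0.811 CPM in CD55KO libraries and 4.001 ± 0.569 CPM in WT libraries (edgeR's quasi-likelihood test, adjusted p = 0.566).

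Downstream of the receptors, none of the 5 adaptors, 18 kinases and ubiquitin factors, 8 transcription factors or 11 negative regulators tested passed (edgeR's quasi-likelihood test). Tirap, the sorting adaptor that brings MyD88 to surface receptors, had 26.6 ± 1.69 CPM in CD55KO libraries and 22.5 ± 1.44 CPM in WT libraries (SD, n = 3 each; adjusted p = 0.475). Pik3ap1, or BCAP, which links the receptors to PI3-kinase in B cells, had 141 ± 13.1 CPM in CD55KO libraries and 144 ± 5.81 CPM in WT libraries (adjusted p = 0.968).

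Among the kinases, Map3k8, the kinase TPL2 of the ERK branch, had 52.0 ± 5.41 CPM in CD55KO libraries and 43.8 ± 3.96 CPM in WT libraries (SD, n = 3 each; edgeR's quasi-likelihood test, adjusted p = 0.458). Ikbke, a kinase that acts on interferon regulatory factors, had 15.9 ± 0.980 CPM in CD55KO libraries and 12.99 ± 1.45 CPM in WT libraries (adjusted p = 0.537). It lies 0.792 Mb from Cd55 on chromosome 1. Of the other listed genes within 10 Mb of Cd55, neither was tested: Rab7b, a GTPase of lysosomal receptor traffic, had 13, 1 and 7 counts in CD55KO libraries and 0, 0 and 0 in WT libraries, and Il10 had 4, 0 and 4 in CD55KO libraries and 8, 6 and 2 in WT libraries.

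The transcription factors with the smallest p were Irf3, with 111 ± 5.73 CPM in CD55KO libraries and 119 ± 7.63 CPM in WT libraries (SD, n = 3 each; edgeR's quasi-likelihood test, adjusted p = 0.748), and Nfkb1, with 57.0 ± 1.02 CPM in CD55KO libraries and 60.6 ± 5.33 CPM in WT libraries (adjusted p = 0.829). Of the negative regulators, Tollip, an adaptor that sends receptors to degradation, had 46.6 ± 2.35 CPM in CD55KO libraries and 40.9 ± 0.972 CPM in WT libraries (adjusted p = 0.545). Tnfaip3, the ubiquitin-editing enzyme A20 that restrains NF-κB, had 6.24 ± 0.713 CPM in CD55KO libraries and 7.80 ± 1.39 CPM in WT libraries (adjusted p = 0.667).

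Among 10 tested genes that B cells are known to induce on receptor stimulation, none passed (edgeR's quasi-likelihood test). Prdm1, which encodes the plasma cell factor Blimp-1, averaged 2.76 ± 0.591 CPM in CD55KO libraries and 4.68 ± 0.456 CPM in WT libraries (SD, n = 3 each; log2 fold change -0.76 ± 0.23; adjusted p = 0.254).

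**Figure D5:**
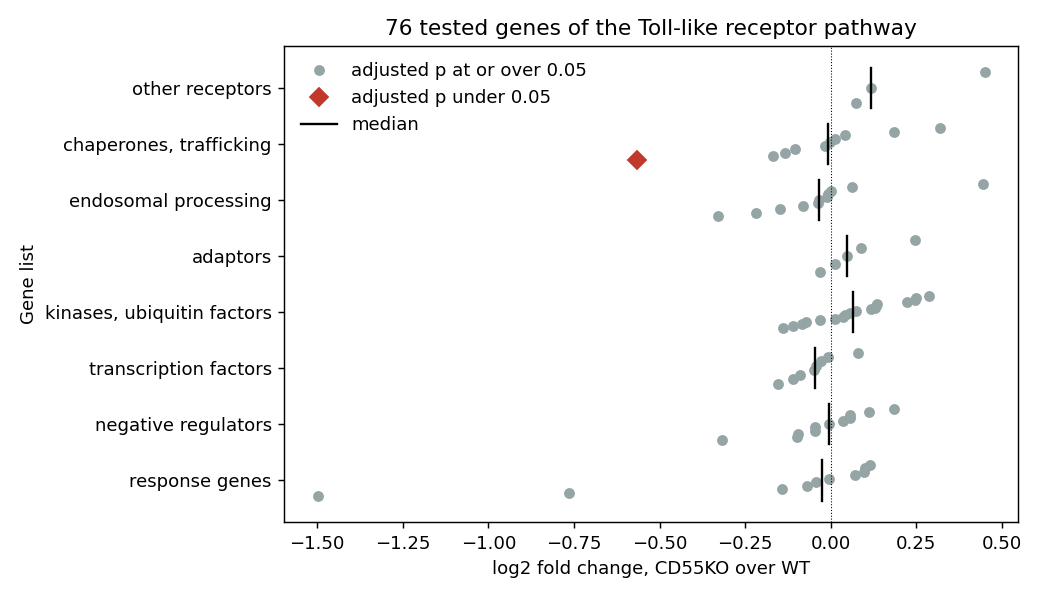
Log2 fold change of CD55KO over WT for the 76 tested genes of 8 pathway lists, 1 point per gene, with a line at the median of each list. The red diamond is Hsp90b1, at -0.57, the only gene of these lists with an adjusted p under 0.05 (edgeR's quasi-likelihood test).

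Of the Toll-like receptor genes outside the 10, Tlr12 alone was tested, at 1.38 ± 0.383 CPM in CD55KO libraries and 1.01 ± 0.143 CPM in WT libraries (SD, n = 3 each). Tlr12, which in mice takes part in sensing profilin of protozoa, had 37, 44 and 29 counts in CD55KO libraries and 19, 29 and 33 counts in WT libraries (log2 fold change 0.45 ± 0.36; edgeR's quasi-likelihood test, adjusted p = 0.804). Tlr5, the flagellin receptor, and Tlr11 had 0 counts in all 6 libraries, where the 3 counts that a count of 0 allows correspond to 0.0958 to 0.146 CPM and cover counting error only. Tlr8 was at 0 counts except for 2 counts in WT replicate 1, and Tlr13 had 0, 2 and 3 counts in CD55KO libraries and 2, 0 and 3 in WT libraries.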

How the data were processed

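RNA from marginal zone B cells was extracted with a micro column kit and made into libraries with the SMARTer Ultra Low kit, per the labels' protocols; this kit does not mark strand. The authors deposited 1 table of estimated counts per gene, of which 30.9% to 31.9% of the values above 0 in a library were not whole within 0.005. DRAGEN, edgeR and limma are named in the submitters' processing notes, with no version or role; no source used here states the aligner's settings, the genome build or the read length. After removal of 287 repeated rows, 55487 gene IDs remained, of which 99.5% were found in GENCODE M21 (GRCm38), used for names, positions, exon lengths and sequences.

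The estimated counts were rounded to whole numbers, filtered with edgeR's filterByExpr (minimum count 10, minimum total 15), scaled by TMM and tested for genotype with edgeR 4.0.16's quasi-likelihood F-test over all 13794 genes that passed, with Benjamini-Hochberg adjustment and a threshold of 0.05. CPM values are TMM-scaled, and SE and 95% intervals come from the same fit. Library totals ran from 20056064 to 30784031. Alternatives were DESeq2 1.42.0, limma 3.58.1, other scalings and count filters, the replicate number as a block, libraries left out, and 3 pairs of genes with summed counts, added after the data were seen. The members and lists were chosen with earlier results of these data known. The text names all 10 members, Cd55, the additional receptors, up to 4 genes past the threshold or else the 2 of smallest p in each pathway list, listed genes within 10 Mb of Cd55, and the 3 genes most like the highest receptor; Cnpy3, Xbp1, Derl3 and single markers were added after their values were seen. A gene of the response list that this rule selects is not reported here.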

Additional observations from a re-analysis of the deposited data

How the results depend on the processing

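Under all 17 alternatives run, 0 of the 10 receptor and partner genes passed the threshold, with a lowest adjusted p of 0.412. The number of genes called was 55, against 137 with DESeq2 and 232 with no count filter, for which the cause was not tested, and 37 to 53 with each library left out in turn. With no count filter 2 pathway genes were called, Hsp90b1 and Rnaset2b; Hsp90b1 was called in every alternative. Tlr3 had an unadjusted p of 0.0291, against 0.15 without CD55KO replicate 2, 0.065 without WT replicate 1 and 0.0702 without WT replicate 3; its log2 fold change ran from -0.26 to -0.15 that of Tlr4 from -0.25 to -0.14 and that of Tlr6 from 0.039 (without WT replicate 1) to 0.34 (without WT replicate 3) with a library left out. Of 169 log2 fold changes of the 10 genes under alternatives, 162 kept their sign and 7 reversed, each with a library left out. These were Cd180 (range -0.18 to 0.075) without CD55KO replicate 2 or WT replicate 2, Ly86 (-0.052 to 0.10) without CD55KO replicate 3 or WT replicate 1, and Tlr2 (-0.033 to 0.14), Tlr7 (-0.058 to 0.021) and Tlr9 (-0.15 to 0.037) without WT replicate 2. Pik3ap1 (-0.089 to 0.038) reversed without CD55KO replicate 3 or WT replicate 2. The difference in the log2 ratio of Ly86 to Cd180 ran from -0.042 to 0.26, and was below 0 with CD55KO replicate 2, CD55KO replicate 3, WT replicate 1 or WT replicate 2 left out. That of Unc93b1 to its cargo ran from -0.087 to 0.051, and was above 0 without WT replicate 3. The cause was not tested for any of these. With the replicate number as a block, 64 genes and 0 of the 10 were called; libraries of the same number correlated at 0.07, -0.12 and 0.17 in their deviations from the genotype means, so the numbers were not taken to pair the libraries. Depth limits Tlr9 and Tlr6 most, where counting alone gives coefficients of variation of 7.02% and 6.05%.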
